A study of Zea mays with 12 samples.

Results

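The Mo17xB73 hybrid is the cross of 2 maize inbred lines whose name puts Mo17 first. Its immature ear transcripts were compared with the midparent, the level expected if both parental genomes contributed equally. The comparison took all 3 Mo17xB73 arrays of the 12 arrays in the series, and the midparent was the arithmetic mean, on the linear scale, of the B73 and Mo17 group means. Every probe set other than the AFFX controls was eligible, 17621 in all, and 11126 were bright enough to be tested. The groups were Mo17xB73, its reciprocal B73xMo17, and the inbred lines B73 and Mo17, with 3 arrays each, and the labels name no treatment. All were field-grown, and each replicate was a pool of 6 ears between 3.7 and 5.4 mm long from which husk and silk had been taken off, with 8 ug of RNA labelled per array. Collection took 3 consecutive days, and the labels do not tie a replicate to a day. A replicate is a pool, so differences among single ears are not measured. Values are MAS5 signals on a linear scale after each array was scaled to a common median of 155. Signals under a floor of 11.9 were set to it.

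An immature ear is a young female inflorescence that still carries meristems and differentiating spikelets and florets. A hybrid nucleus holds one copy of each parental genome. Where the 2 alleles of a gene are each read at their parental rate, the transcript level falls at the midparent, and this pattern is called additive. A level at one parent is called dominance, and a level beyond both parents overdominance or underdominance. Here these words are used for levels only, since alleles were not told apart.

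The libraries carried the transcripts of a young ear. In the Mo17xB73 arrays the meristem homeobox gene kn1 lay between 2065 and 2206, the floral MADS-box gene zap1 between 1123 and 1412, and tb1, a regulator of branching, between 258 and 279. Pollen and anther genes were near the floor, with 0 of 5 probe sets kept for the tests. Of 36 endosperm and embryo probe sets, 24 were at the floor on all 3 Mo17xB73 arrays and 3 were kept. The summed signal of the 26 probe sets of photosynthesis and green tissue was 14288 to 15439 in Mo17xB73, against 12166 to 14107 in B73 and 16952 to 18764 in Mo17. Before scaling, the median signal of an array ran from 123 to 231, and after scaling the 75th percentile was 475 to 499 in Mo17xB73, 451 to 499 in B73 and 492 to 537 in Mo17. The upper parts of the distributions thus did not line up, and the choice of scaling bears on every count below. In pooled tissue, fewer cells of a type and less RNA per cell cannot be told apart.

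Most transcripts of the hybrid lay near the midparent. Of 11126 probe sets, 99 differed from it at an adjusted p under 0.05 in limma, which is 0.89% of those tested. They comprised 43 that were higher (0.386%) and 56 that were lower (0.503%). Over everything tested, the log2 difference had a median of -0.05. At an unadjusted p under 0.05, 1314 differed (11.8%), of which 344 were higher (3.09%) and 970 lower (8.72%). The median size among the called was 1.64-fold for the higher and 1.78-fold for the lower ones, and 16 and 14 of them passed 2-fold. All 3 Mo17xB73 arrays lay on one side of the midparent for each of the 99, as they did for 41.8% of all probe sets tested. Of everything tested, 66.1% had a difference below 0, and 30.7% had all 3 arrays below the midparent.

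**Figure D1:**
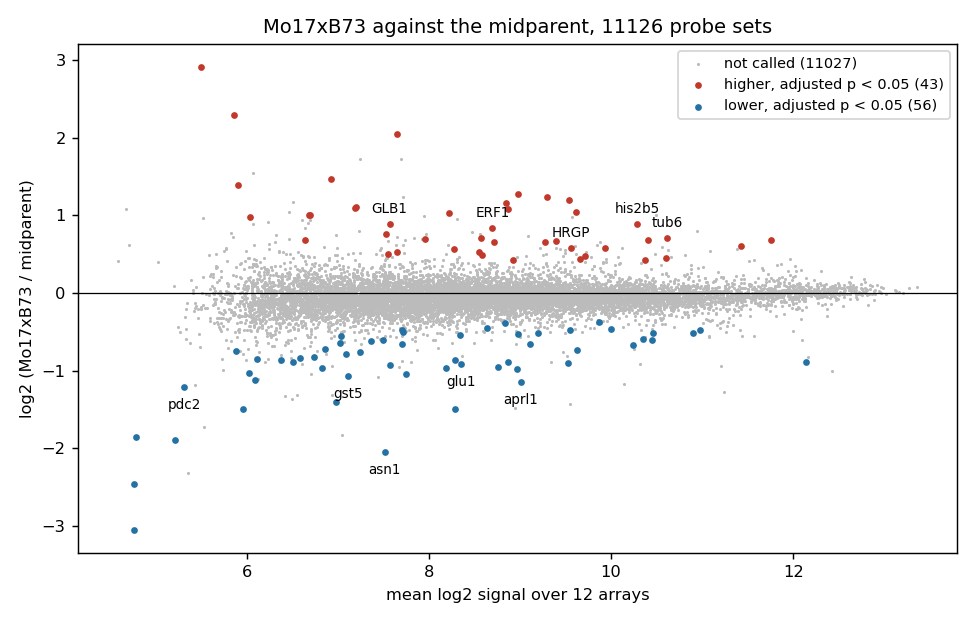
Each point is 1 of 11126 probe sets, with its mean log2 signal over 12 arrays on the horizontal axis and the log2 ratio of Mo17xB73 to the midparent on the vertical axis. Most points lie close to 0; the 43 red points are higher and the 56 blue points lower at an adjusted p under 0.05, and 10 named genes are marked.

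The split between higher and lower probe sets moved with the scaling. It was 43 higher and 56 lower with a common median, 24 and 56 in the values as deposited, 80 and 57 with quantile normalization, and 78 and 40 with a common 75th percentile. As deposited, the median log2 difference of everything tested was -0.15. Neither direction can therefore be called the more frequent. Single arrays also moved the counts: without Mo17xB73 replicate 2 only 5 were higher and 11 lower, and without B73 replicate 2 there were 45 and 95. Counts also moved by over 1.5 times without Mo17xB73 replicate 1 (16 and 28) or 3 (34 and 24), Mo17 replicate 2 (24 and 16), B73 replicate 3 (28 and 30) and B73xMo17 replicates 2 (28 and 39) and 3 (25 and 36). The B73xMo17 arrays enter through the shared estimate of the spread, and a fit to the other 9 arrays alone called 15 higher and 22 lower.

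**Figure D2:**
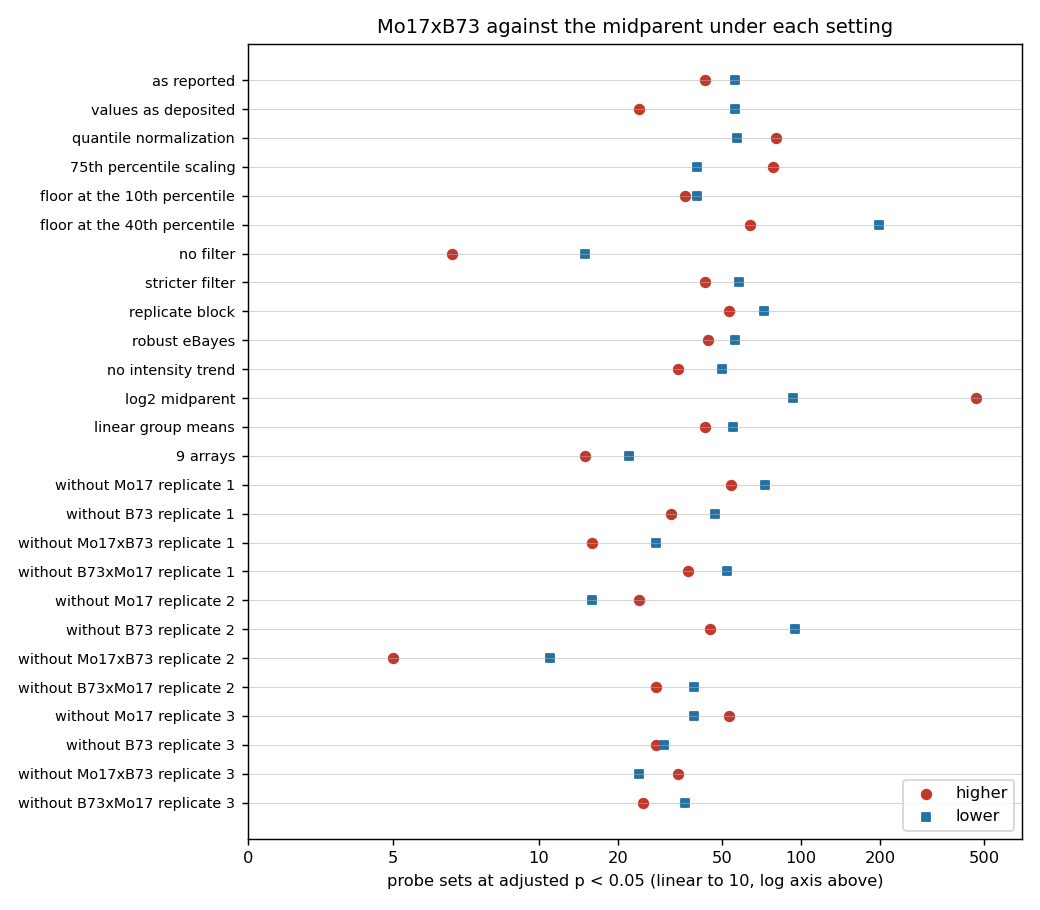
The horizontal axis gives the number of probe sets that differed from the midparent at an adjusted p under 0.05 (linear up to 10 and logarithmic above), for each processing setting down the page. Circles are higher and squares lower in Mo17xB73; the counts run from 5 to 467 for higher and from 11 to 199 for lower.

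The definition of the midparent also matters where the parents lie far apart. When the midparent was taken as the mean of the parental log2 values, 467 probe sets were higher and 93 lower, since by construction a mean of logs lies at or below the log of a mean. The arithmetic midparent was used throughout.

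Most of the called probe sets were not told apart from one of the parents. Among the 43 higher, 17 did not differ from B73 as the higher parent, 5 did not differ from Mo17 as the higher parent, 18 were above both parents and 3 lay between the 2 and differed from each. Among the 56 lower, 28 did not differ from B73 as the lower parent, 6 did not differ from Mo17 as the lower parent, 12 were below both and 10 lay between. Not differing in limma does not show that 2 levels are the same. Among the higher ones B73 was the higher parent in 27 and Mo17 in 6, and in 10 the parents were not called different. Among the lower ones these counts were 11, 34 and 11. Between the parents themselves 4746 probe sets differed (42.7%). Of those that differed at least 2-fold, 741 were higher in B73 and 609 in Mo17. As deposited these were 1237 and 383, so the direction between the parents rests on the scaling.

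Only 15 of the 99 have a usable gene symbol, 10 lower and 5 higher, since 1271 of the 17621 probe sets do. The lower ones are described first. Their log2 differences from the midparent ran from -2.05 to -0.51, and those of the higher ones from 0.58 to 0.90.

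The largest fall with a name was in asn1, which encodes an asparagine synthetase, the enzyme that loads amide nitrogen onto aspartate for transport. Its signal was 35.1, 138 and 151 in Mo17xB73, against 65.3, 97.0 and 64.4 in B73 and 784, 756 and 515 in Mo17. Replicate 1 was below every parental array, the other 2 were above the B73 arrays, and all 3 were far below Mo17. The difference from the midparent of 374 was -2.05 ± 0.42 on the log2 scale (SE; adjusted p = 0.0326 in limma). The reciprocal hybrid, which is set against the same parental arrays, had 298, 338 and 155 and a difference of -0.58 ± 0.42 (adjusted p = 0.765). The call for asn1 did not hold without either of Mo17xB73 replicates 1 and 2, either of Mo17 replicates 1 and 2, or B73 replicate 3 (adjusted p = 0.053 to 0.091), and without Mo17xB73 replicate 1 the difference was -1.37. Nor did it hold with quantile normalization (adjusted p = 0.0531), a common 75th percentile (0.0516), robust estimation of the spread (0.148), no intensity trend (0.054), linear group means (0.0581), 9 arrays (0.0604) or no filter (0.208). With the midparent taken on the log2 scale the difference was -1.31 (adjusted p = 0.0679).

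The gene pdc2 encodes a pyruvate decarboxylase, which opens the fermentation of pyruvate to ethanol. It gave 44.9, 31.1 and 33.2 in Mo17xB73, against 164, 146 and 152 in Mo17 and 11.9, 15.7 and 11.9 in B73, with replicates 1 and 3 at the floor. The groups did not overlap, and the hybrid differed from both parents. Against the midparent it was lower by 1.21 ± 0.24 on the log2 scale (SE; limma adjusted p = 0.0312), a size that depends on the floor. With a floor at the 10th percentile the adjusted p was 0.316, as deposited 0.268, with no filter 0.0652 and with a common 75th percentile 0.0516. With the midparent taken on the log2 scale the difference was -0.32 (adjusted p = 0.592), while raising the floor to the 40th percentile gave -0.55, which passed. Without Mo17xB73 replicate 2 or 3 it was 0.124 and 0.11. A second probe set of pdc2 had a difference of -0.50 (adjusted p = 0.516).

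The gene aprl1 was among the few that lay below both parents. Its signal was 255, 432 and 264 in Mo17xB73, against 815, 627 and 711 in B73 and 555, 610 and 809 in Mo17. No Mo17xB73 array reached the lowest parental array. The difference from the midparent was -1.15 ± 0.16 (log2, SE; limma adjusted p = 0.00611), with -1.22 against B73 (adjusted p = 0.000435) and -1.08 against Mo17 (adjusted p = 0.000779). B73xMo17 had 527, 530 and 440, also under the parental arrays, and a difference of -0.45 ± 0.16 from the midparent (adjusted p = 0.424). The call was kept in 24 of 25 alternative settings.

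Among genes of detoxification and defence, gst5, a glutathione transferase gene by its symbol, gave 115, 83.1 and 77.6 in Mo17xB73, against 107, 134 and 122 in B73 and 254, 253 and 273 in Mo17. The hybrid overlapped B73 and lay below Mo17, at -1.07 ± 0.15 from the midparent (log2, SE; limma adjusted p = 0.00611). The gene glu1 encodes the beta-glucosidase that frees benzoxazinoid toxins from their glucosides. It had 270, 250 and 203 in Mo17xB73, against 556, 507 and 961 in B73 and 252, 286 and 234 in Mo17, so here the hybrid overlapped Mo17, the lower parent. Its difference was -0.92 ± 0.18 (adjusted p = 0.0283), and it did not pass without any one Mo17xB73 array or without Mo17 replicate 2 (adjusted p = 0.0501 to 0.139).

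The glu1 probe set shares its cluster number, Zm.3633, with 9 other probe sets that were tested. One of these, Zm.3633.4.A1_at, singled out after its values were seen, also passed. It had 4624, 4893 and 4352 in Mo17xB73, against 3257, 3154 and 2856 in B73 and 1908, 2835 and 3517 in Mo17, a difference of 0.68 ± 0.14 (log2, SE; limma adjusted p = 0.0369). The remaining 8 had differences between -0.08 and 0.09. Whether members of a cluster measure one transcript was not tested.

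Of the other named falls, 4 were in genes whose Mo17xB73 signals overlapped B73, the lower parent. INO1, which encodes the inositol-phosphate synthase that commits glucose to inositol, had 1109, 808 and 980 in Mo17xB73, against 902, 718 and 1125 in B73 and 1757, 2243 and 2488 in Mo17. The plasma membrane aquaporin gene PIP1-3 had 1099, 1115 and 1127 in Mo17xB73, against 1119, 1040 and 1325 in B73 and 2410, 2111 and 2223 in Mo17. These 2 differed from the midparent by -0.67 ± 0.15 and -0.61 ± 0.09 (log2, SE; limma adjusted p = 0.04996 and 0.00623). PIP1-3 is the tighter of the 2, with a spread of 13.7 (SD, n = 3) in Mo17xB73. Its other 3 probe sets had differences of -0.40, -0.36 and -0.34 and did not pass.

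MNB1a, a Dof zinc finger DNA-binding protein gene, had 975, 1157 and 995 in Mo17xB73, against 1425, 1039 and 1487 in B73 and 1758, 1880 and 1867 in Mo17. CPN60I, a gene of the mitochondrial chaperonin that folds imported proteins, had 1615, 1393 and 1596 in Mo17xB73, against 1665, 1564 and 1953 in B73 and 2410, 2820 and 2711 in Mo17. Both lay well under Mo17 and overlapped B73. The differences from the midparent were -0.59 ± 0.12 and -0.51 ± 0.11 (log2, SE; limma adjusted p = 0.0326 and 0.038). INO1, MNB1a and CPN60I lost the call in 10, 9 and 8 of the 12 fits that each left out 1 array (adjusted p up to 0.29, 0.149 and 0.251), any one of the Mo17xB73 arrays among them. All 3 kept it without B73 replicate 2 or Mo17 replicate 1, MNB1a and CPN60I also without B73xMo17 replicate 1, and CPN60I without B73xMo17 replicate 2.

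The last of the falls, acco20, encodes an ACC oxidase, which makes ethylene, and was below both parents. It had 365, 436 and 453 in Mo17xB73, against 630, 541 and 584 in B73 and 552, 623 and 664 in Mo17, with no overlap. The difference was -0.52 ± 0.10 from the midparent (log2, SE; limma adjusted p = 0.0234). B73xMo17 gave 417, 468 and 413 and -0.47 ± 0.10 (adjusted p = 0.0656). Without Mo17xB73 replicate 1 or 2 or Mo17 replicate 2 it did not pass in Mo17xB73 (adjusted p = 0.0501 to 0.0944).

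Of the 5 named rises, 3 were in genes with strong signals in B73 and far lower ones in Mo17. Whether a lower signal of a probe set meant less transcript was not tested. The histone H2B gene his2b5 had 4223, 4284 and 4180 in Mo17xB73, against 5397, 3623 and 4715 in B73 and 33.2, 28.6 and 27.1 in Mo17. The hybrid fell inside the B73 range, at 0.90 ± 0.14 above the midparent of 2273 (log2, SE; limma adjusted p = 0.00897). The beta-tubulin gene tub6 had 2403, 2476 and 2630 in Mo17xB73, against 2880, 2312 and 2885 in B73 and 396, 390 and 378 in Mo17, a difference of 0.71 ± 0.09 (adjusted p = 0.00519). B73xMo17 also passed for both, at 0.92 and 0.59.

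HRGP encodes a structural wall protein rich in hydroxyproline. It had 2771, 2623 and 2617 in Mo17xB73, against 4211, 3113 and 3421 in B73. In Mo17 it had 11.9, 14.5 and 11.9, with 2 of 3 arrays at the floor. The hybrid was under every B73 array and still above the midparent of 1783, by 0.58 ± 0.12 (log2, SE; limma adjusted p = 0.0314). It did not pass without any one Mo17xB73 array, nor without replicate 2 or 3 of B73 or of B73xMo17 (adjusted p up to 0.111), and his2b5 did not without Mo17xB73 replicate 2 (0.0592). In the values as deposited, where B73 was brighter, none of the 3 passed (adjusted p = 0.555 for his2b5 and 0.913 for tub6 and HRGP). HRGP also did not pass with a floor at the 10th percentile (adjusted p = 0.604), and with the midparent taken on the log2 scale its difference was 3.65 and that of his2b5 3.53. The other HRGP probe set had a difference of 0.47 (adjusted p = 0.16), and the other 3 of tub6 had 0.38, 0.32 and 0.16.

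The other 2 rises were above both parents. ERF1 had 709, 697 and 468 in Mo17xB73, against 391, 409 and 413 in B73 and 243, 310 and 296 in Mo17. GLB1, a hemoglobin gene by its listed synonyms, had 355, 291 and 223 in Mo17xB73, against 187, 181 and 183 in B73 and 94.9, 170 and 120 in Mo17. In both genes every Mo17xB73 array exceeded every parental array, and replicate 3 was the lowest of the 3. The differences from the midparent were 0.84 ± 0.13 for ERF1 and 0.89 ± 0.17 for GLB1 (log2, SE; limma adjusted p = 0.00897 and 0.0267). B73xMo17 had 0.31 and 0.37 (adjusted p = 0.518 and 0.553). Neither passed without Mo17xB73 replicate 1 or 2, and GLB1 did not without B73 replicate 3 (adjusted p = 0.0528 to 0.113 in these fits).

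B73xMo17 is set against the same parental arrays, and for the remaining named genes its difference from the midparent did not pass. It was at -1.25 for pdc2 and 0.62 for HRGP (log2; limma adjusted p = 0.0587 for both), -0.57 for gst5 (adjusted p = 0.225) and -0.64 for glu1 (adjusted p = 0.236). INO1 was at -0.41, PIP1-3 at -0.35, MNB1a at -0.42 and CPN60I at -0.17.

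**Figure D3:**
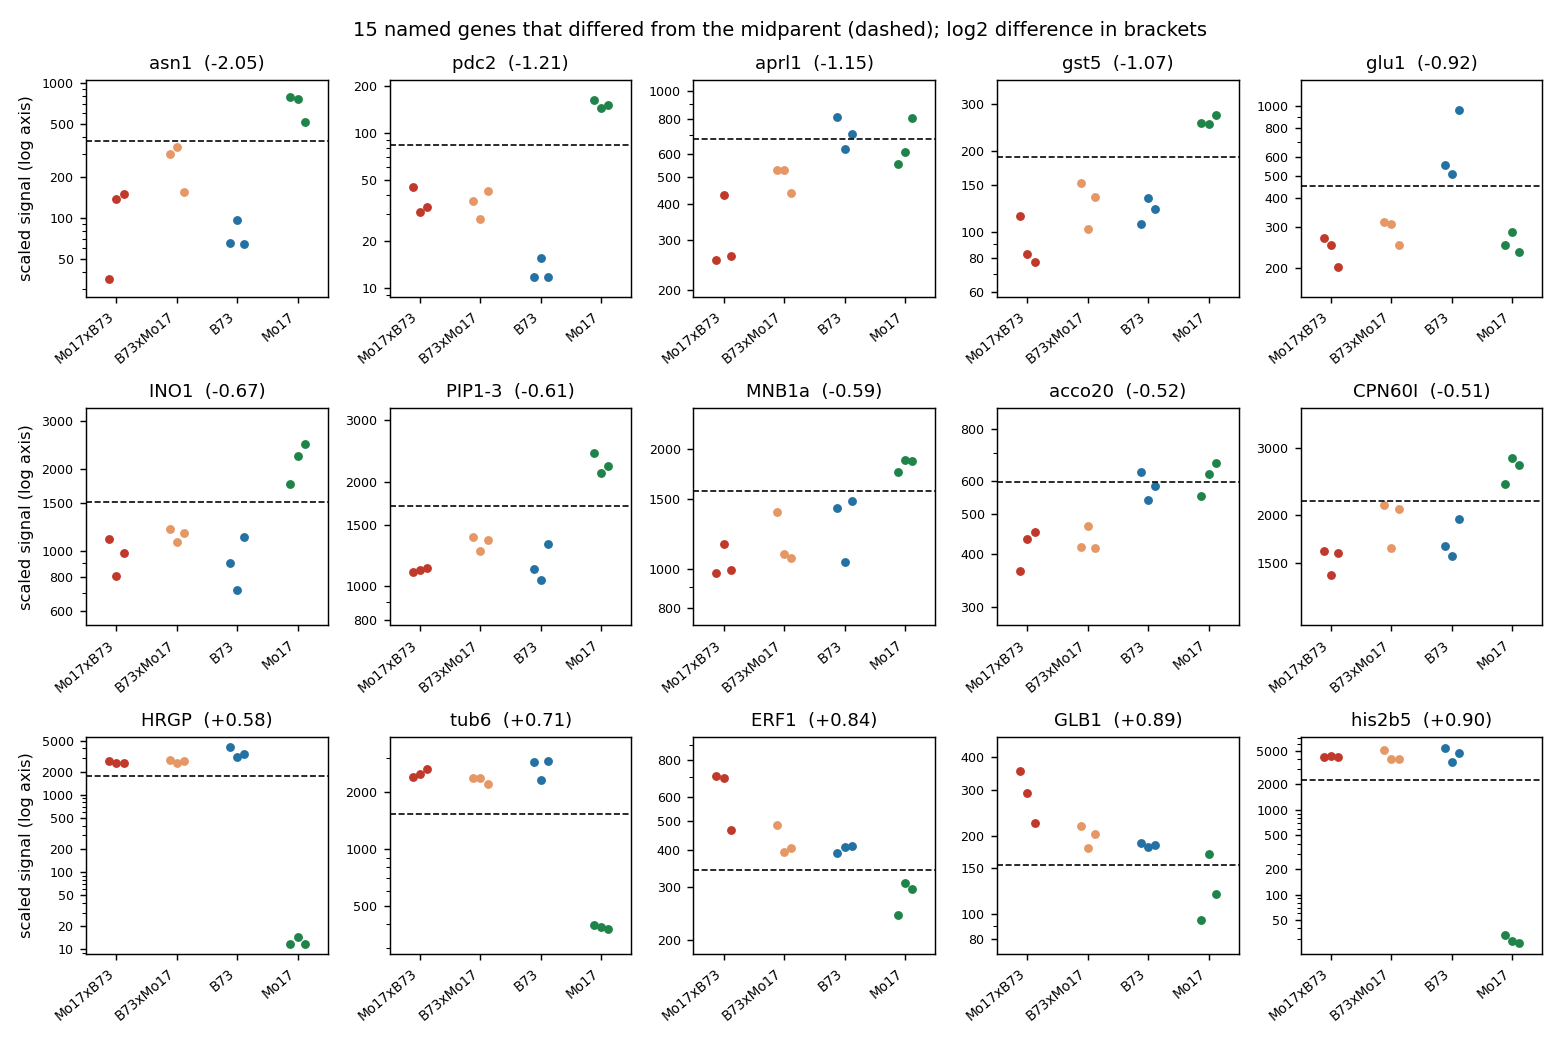
Scaled signal on a log axis for the 15 named genes that differed from the midparent, 1 point per array, for Mo17xB73, B73xMo17, B73 and Mo17, with the midparent as a dashed line and the log2 difference of Mo17xB73 in brackets. In 10 panels all 3 Mo17xB73 points lie below the line and in 5 above it; aprl1 and acco20 fall below and ERF1 and GLB1 above all parental points.

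Next in the order of p among rises with a name were 5 genes that did not pass. They were the phosphoenolpyruvate carboxylase gene pep7 (0.62, adjusted p = 0.078 in limma), the MADS-box genes zag2 (0.35) and ZAG3 (0.31), the translation initiation factor gene eif3 (0.34) and the ethylene receptor gene etr2 (0.36). Each had all 3 Mo17xB73 arrays above the midparent.

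The largest differences were in probe sets without a name here. Among falls, Zm.13929.1.S1_at was at 13.4, 11.9 and 11.9 in Mo17xB73, against 11.9, 19.6 and 36.8 in B73 and 200, 129 and 241 in Mo17, and it was at the floor on all 3 arrays of B73xMo17. Zm.12422.1.S1_at was at 20.8, 11.9 and 11.9 in Mo17xB73, against the floor on all B73 arrays and 222, 169 and 83.3 in Mo17. For both, the hybrid was at or close to the floor although a midparent of 102 and 78.9 was expected. Their fitted differences of -3.05 and -2.46 (log2; limma adjusted p = 0.00427 and 0.00623) depend on the floor. With a floor at the 40th percentile, the adjusted p of Zm.12422.1.S1_at was 0.296.

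Among rises, 3 of the 4 tested probe sets of the cluster Zm.15899 led. Zm.15899.4.A1_x_at had 317, 214 and 56.7 in Mo17xB73, against 19.0, 18.0 and 24.6 in B73 and 11.9, 24 and 34.0 in Mo17. Zm.15899.2.A1_x_at had 779, 933 and 229 in Mo17xB73, against 191, 184 and 179 in B73 and 47.6, 92.3 and 122 in Mo17. Replicate 3 was well below the other 2 in both, yet above every parental array. The differences were 2.91 ± 0.46 and 2.05 ± 0.37 (log2, SE; limma adjusted p = 0.00897 and 0.0228), 2.30 ± 0.43 for Zm.15899.1.A1_a_at (adjusted p = 0.0265) and 1.73 ± 0.42 for Zm.15899.2.A1_at (adjusted p = 0.0756). Zm.15899.2.A1_x_at did not pass without Mo17xB73 replicate 1 or 2 (adjusted p = 0.086 and 0.111), nor Zm.15899.1.A1_a_at without B73 replicate 1 or Mo17 replicate 2 (0.0545 and 0.0501). With robust estimation of the spread these 2 did not pass (0.0992 and 0.066). After the floor was raised to the 40th percentile, the differences of Zm.15899.4.A1_x_at and Zm.15899.1.A1_a_at were 1.14 and 1.12 and did not pass (0.0597 and 0.0594), and Zm.15899.1.A1_a_at did not with a floor at the 10th percentile (0.11). With no filter none of the 3 passed (0.107 to 0.16), nor did Zm.15899.2.A1_x_at with 9 arrays (0.0505). Replicate 3 was the lowest of the Mo17xB73 arrays in 29 of the 43 probe sets that were higher.

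Levels outside the parental range were rare. Mo17xB73 differed from both parents in the same direction for 41 probe sets (0.369%), 22 above and 19 below. Of these, 18 and 12 were also called against the midparent, and in 32 the parents did not pass between themselves. The clearest by p was Zm.12634.1.A1_at, chosen after its values were seen. It had 924, 1213 and 1175 in Mo17xB73, against 497, 585 and 499 in B73 and 524, 591 and 505 in Mo17. No Mo17xB73 array overlapped a parental array, and its difference from the midparent was 1.04 ± 0.10 (log2, SE; limma adjusted p = 0.000926), with 1.18 in B73xMo17. The count of 41 was 62 with quantile normalization, 19 without Mo17xB73 replicate 2 and 24 without B73 replicate 3.

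Where the parents differed at least 2-fold and passed, the hybrid's place between them could be read from 1350 probe sets. On a scale with the lower parent at -1, the midparent at 0 and the higher parent at 1, the median of Mo17xB73 was -0.041, and its 3 arrays gave -0.039, -0.009 and -0.024. A share of 81.5% lay within 0.5 of the midparent. It was 76.0% of the 771 with a 2 to 4-fold parental difference and 91.5% of the 153 above 16-fold. The scale divides by the parental difference, so an equal relative error gives a smaller position where the parents lie further apart. The rise in this share therefore cannot be told apart from the scale. The median was 0.05 over the 741 that were higher in B73 and -0.136 over the 609 that were higher in Mo17. Both lay on the B73 side of the midparent. This order held with quantile normalization (0.035 and -0.086) and a common 75th percentile (0.068 and -0.038), but not as deposited (-0.213 and -0.05) or, for the first of the 2, with a floor at the 40th percentile (-0.014). The parental arrays enter both the choice of these probe sets and the scale, so the values are a description.

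**Figure D4:**
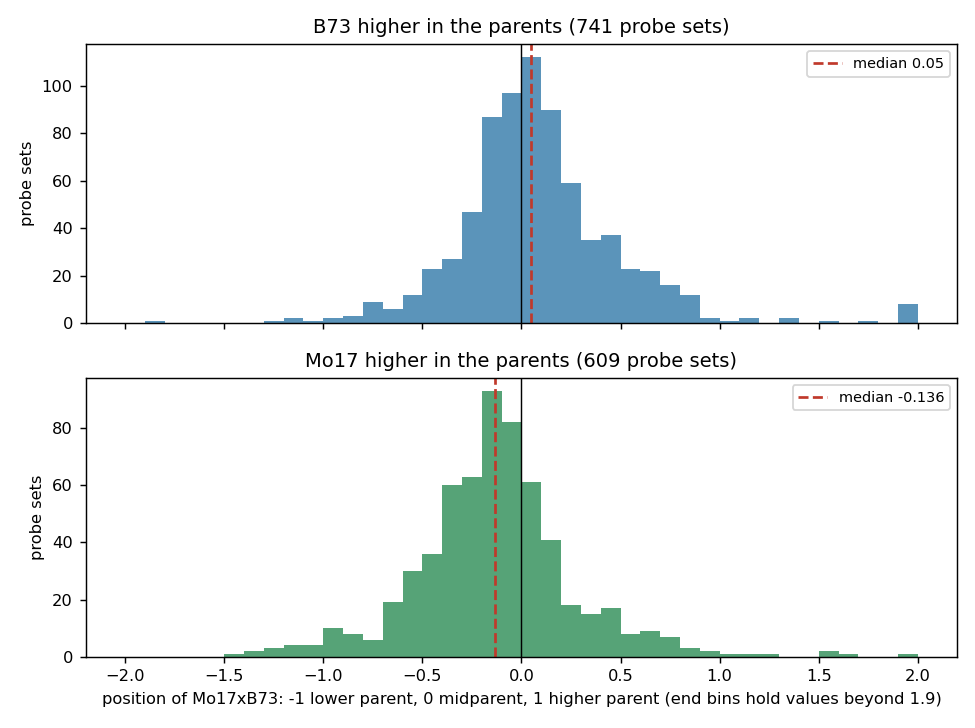
Histograms of the position of Mo17xB73 between its parents (horizontal axis, with -1 the lower parent, 0 the midparent and 1 the higher parent) and the number of probe sets (vertical axis), for 741 probe sets higher in B73 and 609 higher in Mo17. Both are centred near 0, with medians of 0.05 and -0.136 drawn as dashed lines.

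Probe sets with a signal above the floor in 1 parent only were described separately. Whether a signal at the floor meant that the transcript was absent was not tested. There were 82 probe sets that every B73 array measured above the floor and no Mo17 array did, and each of these was above the floor on all Mo17xB73 arrays. Their median ratio of Mo17xB73 to B73 was 0.53 (quartiles 0.482 and 0.569), with 0.511, 0.549 and 0.519 on the 3 arrays. Of 37 probe sets with every B73 array at the floor and every Mo17 array above it, 35 were above the floor on all Mo17xB73 arrays, and over the 37 the median ratio to Mo17 was 0.473 (quartiles 0.43 and 0.531). Of the 82, 0 were called against the midparent in limma, with 7 higher and 6 lower at an unadjusted p under 0.05. Of the 37, 1 was called higher and 2 lower, with 2 higher and 6 lower at that unadjusted p. Over all probe sets tested, 0.386% were called higher and 0.503% lower, and 3.09% and 8.72% were so at that unadjusted p. The parental arrays enter both the choice of these probe sets and the ratio, so the values are a description. With nothing measured from the other parent, the midparent is 0.5 on this scale. The midparent used in the tests counted the other parent at the floor instead of at nothing. The midparent of the tests therefore lay above 0.5 on this scale, and by more where the measured parent was dim. The distances of 0.53 and 0.473 from 0.5 are thus not distances from that midparent.

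Gene groups were then compared with the midparent as lists, described by counts and medians beside the median of -0.05 over all probe sets. Heat shock and chaperone genes had the lowest median. Of 16 tested probe sets, 15 were below the midparent, against 66.1% of all tested, and 11 of them had all 3 Mo17xB73 arrays below it, against 30.7% of all. One passed, CPN60I, and 10 were lower at an unadjusted p under 0.05 in limma, against 8.72% of all probe sets. The list's median was -0.37, and it stayed between -0.48 and -0.30 over all 26 settings. As deposited, 6 of the 16 passed as lower. None of them passed with no filter, no intensity trend or 9 arrays, nor without Mo17 replicate 2 or 3, B73 replicate 3, Mo17xB73 replicate 2 or 3, or B73xMo17 replicate 3.

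The 4 lowest differences of this list were in the small heat shock protein genes hsp26, hsp18c, hsp18a and hsp18f, whose products hold unfolding proteins in solution. The gene hsp18f had 5301, 3634 and 2240 in Mo17xB73, against 6273, 4481 and 6567 in B73 and 8429, 8154 and 8535 in Mo17. The gene hsp18c had 410, 645 and 220 in Mo17xB73, against 351, 623 and 758 in B73 and 1924, 1265 and 1516 in Mo17. Both overlapped B73 and were under all Mo17 arrays, and Mo17xB73 replicate 3 was the lowest of the 3. Their differences were -1.004 and -1.43 on the log2 scale and did not pass (limma adjusted p = 0.0585 and 0.0661), nor did that of hsp26 (-2.32, adjusted p = 0.131), with 1 Mo17xB73 array at the floor.

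Other members were named after their values were seen. The disaggregase gene hsp101 had a log2 difference of -0.93 and hsp22 had -0.82, the endoplasmic reticulum chaperone genes bip1 and bip2 had -0.41 and -0.33, and the 3 probe sets of hsp70-5 ran from -0.10 to 0.17. The summed signal of the list was 32404 to 40750 in Mo17xB73, 35882 to 47873 in B73 and 56495 to 59331 in Mo17. The hybrid overlapped B73 and was below Mo17, from which 9 of the 16 passed as lower and 0 as higher, where 13% of all probe sets passed as lower.

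Water channels and nitrogen genes were also below the midparent at the median. Of 15 tested aquaporin probe sets, 13 were below it, 9 with all 3 arrays (66.1% and 30.7% of all tested), and 1 passed, the PIP1-3 probe set above. The median was -0.21, between -0.28 and -0.16 over all settings. Of the 15, 8 passed as lower than Mo17 and 1 as higher, against 13% and 9.58% of all. PIP1-3 accounts for 4 of the 15, so these are not separate genes. Of 7 probe sets of amino acid and nitrogen metabolism, asn1 passed and 6 were below, beside 66.1% of all, with a median of -0.27. The glutamine synthetase gene gln2 had 102, 105 and 102 in Mo17xB73, against 145, 153 and 115 in B73 and 150, 180 and 154 in Mo17. It was below every parental array, at -0.52 ± 0.12 from the midparent (log2, SE), and did not pass (limma adjusted p = 0.0585).

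Of 12 tested benzoxazinoid and defence probe sets, 11 were below the midparent, against 66.1% of all tested, and 1 passed, glu1, with a median of -0.20 (-0.32 to -0.15 over all settings). Here 7 passed as lower than B73 and 0 as higher, against 6.49% and 6.92% of all. Against Mo17, 1 passed as lower and 3 as higher, where 13% and 9.58% of all did. The jasmonate synthesis gene aoc1 had 248, 220 and 278 in Mo17xB73, against 384, 404 and 469 in B73 and 226, 264 and 307 in Mo17, a difference of -0.46 (limma adjusted p = 0.084). The benzoxazinoid hydroxylase gene bx6 had 299, 306 and 306 in Mo17xB73, against 461, 400 and 385 in B73 and 312, 357 and 378 in Mo17, a difference of -0.33 (adjusted p = 0.116). Another probe set of aoc1 had -0.11 and another of bx6 had -0.20.

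Single genes of sugar and redox metabolism had similar sizes without passing. The vacuolar invertase gene ivr2 had 518, 1142 and 1159 in Mo17xB73, against 931, 1421 and 1201 in B73 and 2396, 2031 and 2029 in Mo17, a difference of -0.91 (limma adjusted p = 0.0597). The catalase gene CAT3 had -0.64 (adjusted p = 0.121). The Rubisco small subunit gene rbcs1 had 81.7, 95.1 and 72.3 in Mo17xB73, against 105, 190 and 95.6 in B73 and 175, 172 and 138 in Mo17, and the difference was -0.79 (adjusted p = 0.0816). Of 19 photosynthesis probe sets, 0 passed, against 0.89% of all tested. At an unadjusted p under 0.05 in limma 5 were lower, against 8.72% of all, and the median was -0.10. Against Mo17, 7 passed as lower and 1 as higher, where 13% and 9.58% of all did. The summed signal of this list also lay between the parents, as given above, and whether tissue makeup takes part was not tested.

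Of 24 tested probe sets of inflorescence architecture and 23 of MADS-box genes, which pattern the ear and its flowers, 0 passed in limma, where 0.89% of all did. At an unadjusted p under 0.05, 2 were higher and 1 lower in the first list and 3 higher and 1 lower in the second, against 3.09% and 8.72% of all. The medians were 0.05 and -0.10. The LEAFY-like gene zfl1, which sets floral identity, had 2 probe sets at 0.27 and 0.53 (adjusted p = 0.305 and 0.279). The YABBY gene yab10 had -0.27 and the PISTILLATA-like gene zmm16 had -0.25.

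The remaining lists described here had medians between -0.07 and 0.08. For comparison, 0.386% of all probe sets tested passed as higher and 0.503% as lower. At an unadjusted p under 0.05 in limma, 3.09% of all were higher and 8.72% lower. Of 49 translation probe sets 0 passed, with 1 higher and 2 lower at an unadjusted p under 0.05 and a median of 0.00, and of 25 of the cell cycle and DNA replication 0 passed and 0 had an unadjusted p under 0.05, with a median of 0.01. Of 67 histone and chromatin probe sets 1 passed, his2b5, with a median of 0.02, and 1 was higher and 0 lower at that unadjusted p. Cell wall genes (24) and the cytoskeleton (25) had 1 each, HRGP and tub6, and medians of 0.03 and 0.06. At that unadjusted p, 4 cell wall probe sets were higher and 2 lower, and 3 and 2 of the cytoskeleton. Glycolysis and fermentation (27) had pdc2 as lower and a median of 0.07, and redox genes (24) had gst5 as lower and -0.04. At that p, 4 of the first were higher and 3 lower, and 2 and 4 of the second. Hormone genes (22) had acco20 as lower and -0.05, with 1 higher and 2 lower at that p. Starch and sucrose genes (19) had 0 called, 1 lower at that p and a median of -0.07. Proteolysis genes (15) had 0 called, 1 higher at that p and a median of 0.08. The sign of the median changed between settings for each of these lists except starch and sucrose, where it stayed below 0. The median of all probe sets also moved between settings. Relative to it, redox and hormone genes changed sign, and starch and sucrose genes stayed below (-0.05 to -0.012). The other lists of this paragraph stayed above it, for example by 0.019 to 0.123 for cell wall and 0.106 to 0.157 for proteolysis genes.

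**Figure D5:**
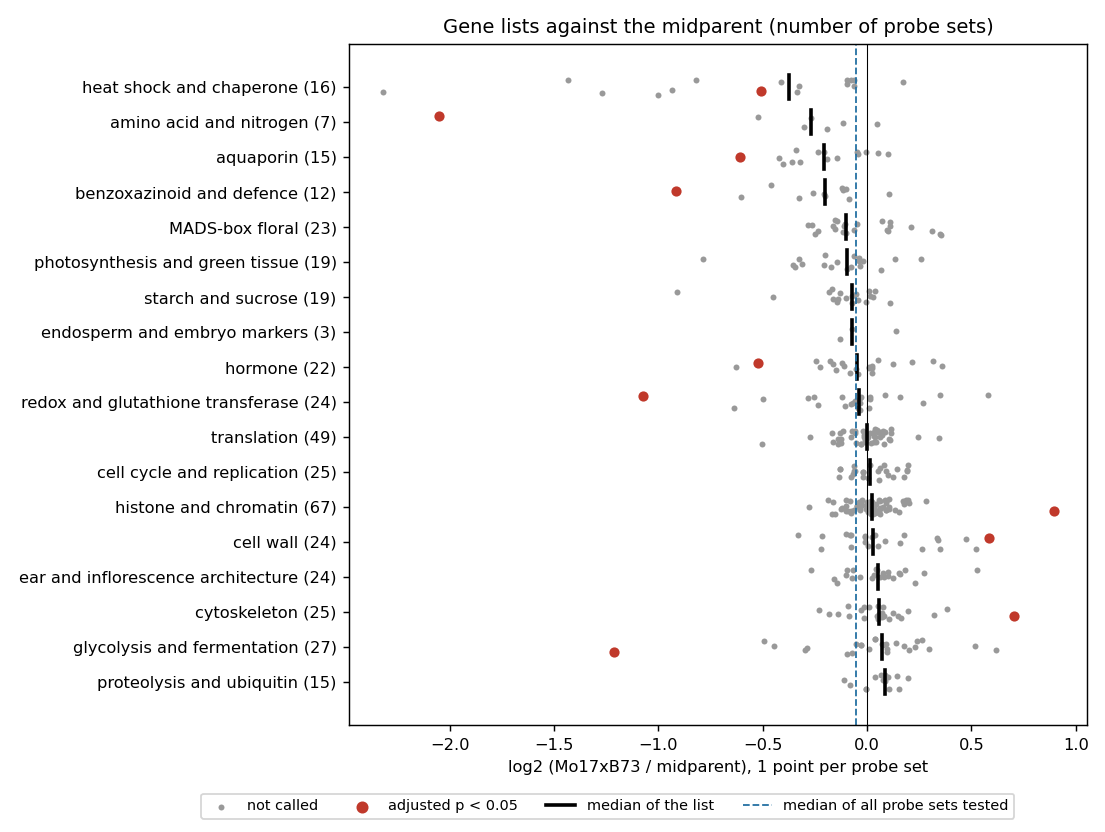
The log2 ratio of Mo17xB73 to the midparent (horizontal axis) for every tested probe set of 18 gene lists, with the number of probe sets in brackets; red points passed at an adjusted p under 0.05, black bars are list medians and the dashed line is the median of all probe sets tested. Heat shock and chaperone genes have the lowest median, -0.37, and reach -2.32. The translation, cell cycle and chromatin lists have medians close to 0.

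Against its parents one at a time, the hybrid differed far more often. In limma 1492 probe sets differed from B73 (13.4%), 770 higher (6.92%) and 722 lower (6.49%), and 2512 differed from Mo17 (22.6%), 1066 higher (9.58%) and 1446 lower (13%). These splits rest on the scaling: as deposited they were 312 and 792 against B73 and 773 and 224 against Mo17, with quantile normalization 1362 and 1060 against Mo17, and with a common 75th percentile 1436 and 892. The median log2 difference over everything tested was 0.01 against B73 and -0.11 against Mo17, and as deposited -0.29 and 0.01. Without B73 replicate 3 the split against B73 was 669 and 414, without B73 replicate 1 it was 678 and 436, and without Mo17xB73 replicate 2 it was 605 and 479. Against Mo17, it was 961 and 919 without Mo17 replicate 2, 1013 and 901 without Mo17 replicate 3, and 911 and 915 without Mo17xB73 replicate 2.

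Genes were named for these comparisons by size among probe sets with a symbol. Several had low signals in a parent on the probe set named, while others, such as glu1 and aprl1, were well above the floor in both. The glutathione transferase gene gst13 had 220, 283 and 225 in Mo17xB73, against 11.9, 28.8 and 11.9 in B73 with 2 arrays at the floor. The cytosolic glyceraldehyde-3-phosphate dehydrogenase gene GAPC had 201, 206 and 189 in Mo17xB73, against 41.9, 61.2 and 32.5 in B73 (2.19 ± 0.18 on the log2 scale, SE; limma adjusted p = 9.57e-07). The gene pep7 had 277, 237 and 350, against 62.7, 73.9 and 51.4 in B73. The ubiquitin-conjugating enzyme gene ubc7 had 60.3, 45.5 and 51.3, against 11.9, 13.2 and 13.2 in B73 with 1 array at the floor. In all 4 the hybrid's arrays lay above those of B73 without overlap. A second probe set of gst13 had 348, 343 and 362 in Mo17xB73, against 539, 395 and 340 in B73. It overlapped B73, at -0.25 ± 0.15 (log2, SE), and did not pass (adjusted p = 0.359).

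Among probe sets with a symbol, lower than B73 by the most were glu1 (-1.44), CAT3 (-1.35), the silicon transporter gene Lsi6 (-1.29) and aprl1. Zm.11758.1.A1_at, which has no symbol, was lower still, at -1.93. CAT3 had 128, 114 and 131 in Mo17xB73, against 321, 302 and 329 in B73. Higher than Mo17 by the most, among probe sets with a symbol, were both HRGP probe sets, his2b5 and the cellulose synthase gene CesA-4. CesA-4 had 177, 216 and 192 in Mo17xB73, against 14.9, 12.3 and 11.9 in Mo17 and 318, 324 and 292 in B73, and it lay 0.26 above the midparent without passing (limma adjusted p = 0.529). Lower than Mo17 by the most, again among those with a symbol, were hsp26, asn1, pdc2 and hsp18c.

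The 2 reciprocal hybrids were not separated. In limma 0 probe sets differed between Mo17xB73 and B73xMo17, with 223 (2%) at an unadjusted p under 0.05. As deposited 6 differed, 2 higher and 4 lower in Mo17xB73, and without B73xMo17 replicate 2 there was 1. The arrays of the 2 hybrids correlated at 0.979 to 0.990 across probe sets on the log2 scale, and the 3 Mo17xB73 arrays with each other at 0.980 to 0.985. Against the same parental arrays 10 probe sets of B73xMo17 were called (0.0899%), 5 higher and 5 lower (0.0449% each), where Mo17xB73 had 99. The difference in number is no test of a difference between the hybrids. Of the named genes, asn1 (-1.47), aprl1 (-0.69), ERF1 (0.53), CPN60I (-0.34) and GLB1 (0.51) had unadjusted p values of 0.00465, 0.00242, 0.0035, 0.0148 and 0.0186 between the hybrids and did not pass.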

How the data were processed

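Affymetrix maize arrays of 12 immature ear pools were used. The deposited intensities were linear MAS5 signals, with a single value per probe set and array; that they came from MAS5 is per the submitters' processing notes. The sources used here do not give its version or target signal. Depth does not apply, and the number of arrays limits the precision. AFFX controls (113) were dropped, and arrays were brought to a common median over the other 17621 probe sets. A floor was set at the median over arrays of the 20th percentile (11.9) before taking log2. A probe set was kept if it exceeded the 40th percentile of the array on 3 or more of the 12, which left 11126. limma 3.58.1 (R 4.3.3) fitted a mean per genotype by lmFit, moderated by eBayes with an intensity trend on 8 residual degrees of freedom. The delta method gave the error of the midparent contrast. Benjamini-Hochberg adjustment ran over all 11126. The fit was also run on simulated data with independent normal noise of the fitted spread. That run could not test the scaling, the floor or deviations shared between arrays. Log2 differences are between group means of log2 values, and p-values are two-sided.

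Names came from the platform annotation, with symbols and synonyms updated from a RefSeq gene table (Zm-B73-REFERENCE-NAM-5.0) in which 1377 probe sets found their gene; 1271 had a usable symbol. Genes were named by size among those passing with all 3 arrays on one side of the midparent, filled to 10 by smallest p. The 3 largest each way, up to 4 members per list by p and the 4 largest with a symbol each way against each other group were added. The comparison, lists and genes were chosen with earlier results of these data known. No sequences or coordinates are given. Replicates are labelled as biological. Their numbers were not taken to pair arrays, since only some same-numbered pairs deviated together. Correlations of these deviations ran from -0.089 to 0.459 over 18 same-numbered pairs (median 0.15). Over 36 other pairs they ran from -0.461 to 0.192 (median -0.057), so same-numbered pairs were higher at the median. Counts with the replicate number as a block are given below. No 2 arrays were identical. Figures used Python 3.11.15 and matplotlib 3.10.9.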

Additional observations from a re-analysis of the deposited data

How the results depend on the processing

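Of 25 alternatives, a floor at the 10th percentile, a stricter filter, robust moderation, no intensity trend and linear group means left every count within 1.5 times. Higher and lower probe sets against the midparent were 43 and 56 as reported. Higher ones numbered 24 as deposited, 80 with quantile normalization, 78 with a common 75th percentile, 7 with no filter, 467 with a log2 midparent and 15 with 9 arrays. Lower ones numbered 199 with a floor at the 40th percentile, 15 with no filter, 93 with a log2 midparent and 22 with 9 arrays. Leaving out 1 array gave 5 to 54 higher and 11 to 95 lower. Probe sets outside both parents numbered 62 with quantile normalization, 26 with 9 arrays and 19 to 55 with 1 array left out. The median position of -0.041 turned to 0.025 with a common 75th percentile and to 0.332 with a log2 midparent. It was -0.182 as deposited, -0.014 with quantile normalization, -0.112 with a floor at the 40th percentile, -0.071 with no filter and -0.058 to -0.021 with 1 array left out. Against Mo17, 997 passed as deposited and 1826 to 3064 with 1 array left out, against B73 1083 to 1687, and against B73xMo17 6 as deposited and 0 to 1. With the replicate number as a block, 53 were higher and 72 lower, and no count moved by over 1.5 times. Of the 15 named genes, 11 lost the call as deposited, 13 with no filter, 8 with 9 arrays and 11 without Mo17xB73 replicate 2, and no difference changed sign. The causes were not tested. Signals near the floor have no order, which limits pdc2, HRGP and probe sets at the floor in one parent.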
